A study of Homo sapiens with 12 samples.

Results

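The genes described here are 7 target genes of the transcription regulators YAP and SRF, namely ANKRD1, CCN1, CCN2, AMOTL2, ACTA2, TAGLN and MYL9, among 67053 genes listed in the poly-A RNA tables. They were chosen by name, with values of these libraries in view: ANKRD1 was higher with both trigger plasmids and ACTA2 was lower with the TRIM9 trigger. Every difference of these genes from the GFP control is therefore a description. The genes were part of the fit over all tested genes, but no p of theirs against GFP is used as evidence. Of the 7, 6 reached an FPKM, the submitters' measure of level scaled by transcript length and sequencing depth, of at least 1 in at least 2 libraries and were among the 15183 genes tested. MYL9 did not.

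HEK293T, a human embryonic kidney cell line, was transfected with 2 µg of a plasmid whose GFP reporter held in its 3′ untranslated region no added trigger (GFP control), a trigger from BCL2L11 or a trigger from TRIM9. A trigger here is a stretch of target RNA that pairs extensively with a microRNA and leads to its loss, and the pairs of interest were BCL2L11 with miR-221 and miR-222, and TRIM9 with miR-218. Cells were harvested at 48 h, and the poly-A RNA makes 6 libraries, a pair of biological replicates for each group. All groups share the cell line, the GFP reporter and a transfection with PEI or lipofectamine. The labels do not tie a reagent to a library. Replicates 1 have the title numbers 1 to 3 and replicates 2 the numbers 4 to 6, called here set 1 and set 2. The labels name the sets neither as batches nor as pairs.

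YAP and its relative TAZ are coactivators that the Hippo kinases LATS1 and LATS2 keep in the cytoplasm. When cells spread, are sparse or build contractile actin, YAP enters the nucleus and binds TEAD proteins on DNA, and CCN1, CCN2, ANKRD1 and AMOTL2 are its textbook targets. SRF binds DNA at CArG boxes. With the actin-sensing coactivators MRTFA and MRTFB it drives genes of the contractile cytoskeleton such as ACTA2, TAGLN and MYL9, and with the ELK factors it drives immediate early genes. The pathways share targets, since CCN1, CCN2 and ANKRD1 answer to both.

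The DNA sites by which these factors recognise the genes were looked up in RefSeq promoter windows (GRCh38.p14), which run from 250 bases before to 50 bases after a start site. Such windows were found for 4 of the 7 genes, ANKRD1, CCN2, AMOTL2 and ACTA2, with 6 start sites in all. The core letters of the TEAD site, GGAATG or CATTCC, which are 1 site read on either strand, stood in 4 of these 6 windows. Among all 35116 windows 14.0% held the letters at least once, 1.37% at least 2 times and 0.128% at least 3 times. CCN2 held them 3 times, ANKRD1 2 times, and AMOTL2 and ACTA2 once each. The stretches of 30 bases around them are shown because these are the letters by which TEAD proteins, the DNA-binding partners of YAP, recognise a target, 5′ to 3′ along the gene, with the core letters in capitals.
ANKRD1, 215 to 220 bases before its start, chr10:90921290-90921319, minus strand: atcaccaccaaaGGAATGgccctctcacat
ANKRD1, 123 to 128 bases before its start, chr10:90921198-90921227, minus strand: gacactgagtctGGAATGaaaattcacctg
CCN2, 164 to 169 bases before its start, chr6:131951524-131951553, minus strand: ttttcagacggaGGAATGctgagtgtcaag
CCN2, 90 to 104 bases before its start, chr6:131951454-131951483, minus strand: gtggggaGGAATGcgaGGAATGtccctgtt
AMOTL2, 64 to 69 bases before its start, chr3:134374499-134374528, minus strand: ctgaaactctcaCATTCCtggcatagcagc
ACTA2, 178 to 183 bases before its start, chr10:88952939-88952968, minus strand: gagcagaccagtGGAATGcagtggaagaga

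The CArG box of SRF was searched by its name's usual letters, exactly and with up to 1 letter other than A or T among its middle 6. No exact box stood in the 6 windows, and 1.29% of all windows held one. With 1 mismatch the downstream ACTA2 window held 2 boxes, against 8.13% of all windows with at least 1 and 0.686% with at least 2. These are shown, box in capitals, because none of the other windows found, the upstream ACTA2 window among them, held such a box. No window was found for CCN1, TAGLN and MYL9, so whether ACTA2 differs in this from the other SRF targets was not tested. A match of letters is a description and does not show that a factor binds there.
ACTA2, 112 to 121 bases before its start, chr10:88952875-88952904, minus strand: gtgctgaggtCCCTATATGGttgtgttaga
ACTA2, 62 to 71 bases before its start, chr10:88952825-88952854, minus strand: tgtctttgctCCTTGTTTGGgaagcaagtg

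The libraries differed in how many transcripts they detected, with 83584 to 100723 of 250719 above 0 in set 1 and 109805 to 110534 in set 2, and in covered bases, with 3.4 to 4.52 gigabases. The 15 pairs of libraries held 0 identical pairs. The trigger genes marked the libraries as labelled: BCL2L11 stood at 11484 and 11275 FPKM with its trigger and at 3.95 to 6.32 elsewhere, and TRIM9 at 5297 and 3948 with its own and at 1.21 to 2.92 elsewhere. Of 6 markers of HEK293 cells fixed for the check, 5 reached an FPKM of 1, among them VIM at 368 to 500.1, and PAX2 stayed at 0.0886 to 0.613. IRS4, an adaptor protein typical of the line, stood at 8.61 to 16.0 in set 1 and 65.4 to 80.3 in set 2.

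Among the 7 genes ANKRD1 had the highest level in every library and MYL9 the lowest. In GFP cells the order of mean FPKM was ANKRD1 (22.5 ± 2.82), CCN1 (14.9 ± 2.73), ACTA2 (14.7 ± 0.104), AMOTL2 (7.56 ± 1.13), CCN2 (1.97 ± 0.650), TAGLN (1.64 ± 0.620) and MYL9 (SD, n = 2 each). FPKM is scaled by transcript length, so these levels can be set beside each other. CCN1 and ACTA2, and likewise CCN2 and TAGLN, changed places between the GFP replicates and did not differ beyond their spread. ANKRD1 and CCN1 did not overlap, nor did ACTA2 and AMOTL2 or AMOTL2 and CCN2. In TRIM9 cells CCN1 came second in both libraries, and ACTA2 came next in replicate 1 but stood below AMOTL2 in replicate 2, with 1.91 against 4.25 FPKM.

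**Figure D1:**
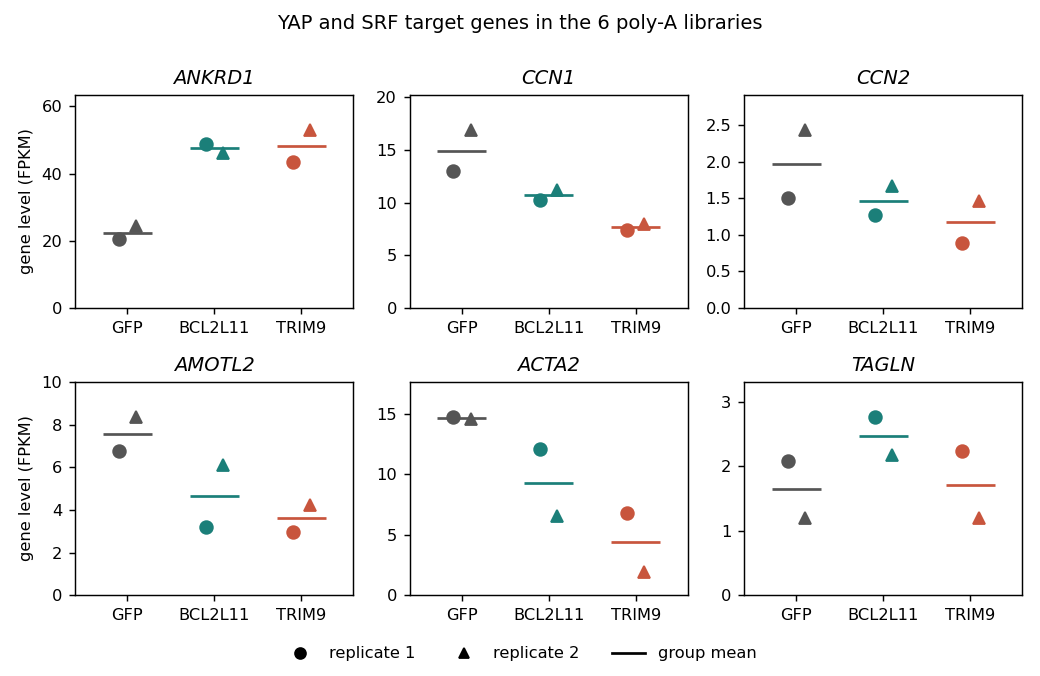
FPKM of 6 of the genes (vertical axes, each from 0) in GFP, BCL2L11 and TRIM9 cells (horizontal axes), with circles for replicate 1, triangles for replicate 2 and lines for group means. ANKRD1 lies at 20.5 and 24.4 in GFP cells and at 43.6 to 52.9 with a trigger, and ACTA2 at 14.7 and 14.6 in GFP cells and 6.83 and 1.91 with TRIM9.

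ANKRD1 (ENSG00000148677.7, chromosome 10, 90912096 to 90921087, minus strand, hg38) encodes an ankyrin-repeat protein of the muscle sarcomere and nucleus that responds to mechanical load. Its FPKM was 20.5 and 24.4 in GFP cells, 49.0 and 46.1 in BCL2L11 cells and 43.6 and 52.9 in TRIM9 cells. All 4 trigger libraries lay above both GFP libraries, and the trigger groups overlapped each other. On the log2(FPKM + 1) scale the difference from GFP was 1.05 (SE 0.29) with BCL2L11 and 1.07 (SE 0.29) with TRIM9, and the ratio of mean FPKM was 2.12 and 2.15. Within set 1 the log2 differences were 1.22 and 1.06, and within set 2 they were 0.89 and 1.08. The single annotated transcript of 9 exons held all of this signal, with 164213 to 463352 covered bases per library, and no other annotated gene overlapped it.

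CCN1 (ENSG00000142871.18, chromosome 1, 85580761 to 85584589, plus strand) encodes a secreted matrix protein that binds integrins. It stood at 13.0 and 16.9 FPKM in GFP cells, 10.2 and 11.2 in BCL2L11 cells and 7.40 and 7.94 in TRIM9 cells. The 3 groups did not overlap, with GFP highest and TRIM9 lowest. The log2 difference from GFP was -0.43 (SE 0.29) with BCL2L11 and -0.87 (SE 0.29) with TRIM9, and within the sets it was -0.32 and -0.55 for BCL2L11 and -0.74 and -0.999 for TRIM9.

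CCN2 (ENSG00000118523.6, chromosome 6, 131948176 to 131951372, minus strand) encodes the related matrix protein long known as connective tissue growth factor. Its FPKM was 1.51 and 2.43 in GFP cells, 1.27 and 1.66 in BCL2L11 cells and 0.890 and 1.46 in TRIM9 cells. Both TRIM9 libraries lay below both GFP libraries, while BCL2L11 overlapped each of the other groups. The log2 difference from GFP was -0.25 (SE 0.31) with BCL2L11 and -0.44 (SE 0.31) with TRIM9. These values rest on 11110 to 23341 covered bases per library, far fewer than for CCN1 (87880 to 158549), and the added 1 FPKM narrows log2 differences at such levels.

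AMOTL2 (ENSG00000114019.14, chromosome 3, 134355874 to 134375479, minus strand) encodes an angiomotin, a junction protein that binds YAP and holds it in the cytoplasm, so the gene is both target and inhibitor. It stood at 6.76 and 8.36 FPKM in GFP cells, 3.21 and 6.11 in BCL2L11 cells and 2.98 and 4.25 in TRIM9 cells. In FPKM both trigger groups lay below GFP and overlapped each other. In covered bases of AMOTL2 BCL2L11 (67894 and 129024) overlapped GFP (115115 and 149525), while TRIM9 (70272 and 90502) lay below GFP. The log2 difference from GFP was -0.64 (SE 0.37) with BCL2L11 and -0.90 (SE 0.37) with TRIM9. Within set 1 and set 2 it was -0.88 and -0.40 for BCL2L11, and -0.96 and -0.83 for TRIM9.

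ACTA2 (ENSG00000107796.13, chromosome 10, 88935074 to 88991339, minus strand) encodes smooth muscle alpha-actin, the filament protein of contractile cells. It stood at 14.7 and 14.6 FPKM in GFP cells, 12.1 and 6.57 in BCL2L11 cells and 6.83 and 1.91 in TRIM9 cells. Both trigger groups lay below both GFP libraries, but the replicates of each trigger group differed by more than those of GFP, with replicate 2 the lower one in both. The log2 difference from GFP was -1.71 (SE 0.52) with TRIM9 and -0.66 (SE 0.52) with BCL2L11. The TRIM9 difference was -1.01 within set 1 and -2.42 within set 2, and the BCL2L11 difference was -0.27 and -1.04. Without TRIM9 replicate 2 the TRIM9 difference was -1.0 and without TRIM9 replicate 1 it was -2.43. TRIM9 replicate 2 held 10999 covered bases of ACTA2, against 72331 and 84943 in GFP cells.

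TAGLN (ENSG00000149591.17, chromosome 11, 117199370 to 117207464, plus strand) encodes transgelin, an actin-binding protein of smooth muscle and an SRF target used beside ACTA2 as a contractile marker. Its FPKM was 2.08 and 1.2 in GFP cells, 2.76 and 2.16 in BCL2L11 cells and 2.24 and 1.19 in TRIM9 cells. In FPKM BCL2L11 lay just above GFP (log2 difference 0.41, SE 0.34), and TRIM9 overlapped GFP (0.03, SE 0.34). In covered bases of TAGLN BCL2L11 (26477 and 22581) overlapped GFP (29008 and 9142) as well. MYL9 (ENSG00000101335.10, chromosome 20, 36541497 to 36551447, plus strand), the regulatory light chain of smooth muscle myosin, was listed at 0.108 FPKM in GFP replicate 2, 0.0380 in TRIM9 replicate 1 and 0 in the other 4 libraries. MYL9 thus gave no comparison, with 566 and 1235 covered bases where it was seen.

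In limma 0 of the 6 tested genes passed an adjusted p of 0.05 (Benjamini-Hochberg) against GFP with either trigger, as did 0.00659% of all tested genes in each comparison, which is the trigger's own gene. With a term for the sets 0 of the 6 passed as well, against 0.00659% and 0.0395%. Below an unadjusted p of 0.05 stood 1 of the 6 with BCL2L11 and 4 with TRIM9, against 0.547% and 1.15% of all tested genes. With TRIM9, 1 gene lay above GFP without overlap and 4 below, against 6.66% and 11.2% of all tested genes. With BCL2L11 it was 2 above and 3 below, against 4.44% and 12.3%. The genes were chosen on these comparisons, so these counts are no test of them and nothing is read from them. The comparisons with each trigger share the GFP libraries.

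**Figure D2:**
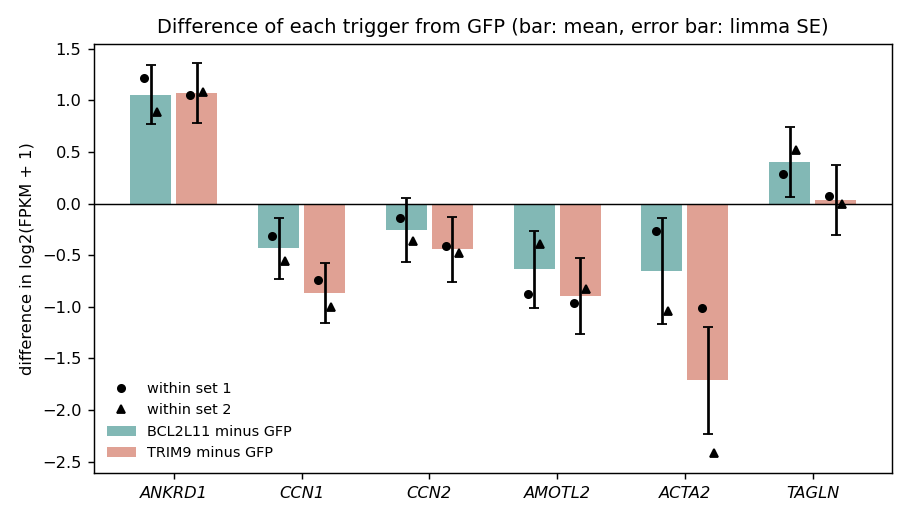
Difference of each trigger from GFP in log2(FPKM + 1) for 6 genes, as bars with limma SE, and the differences within set 1 (circles) and set 2 (triangles). ANKRD1 lies near 1.05 and 1.07, CCN1, CCN2, AMOTL2 and ACTA2 lie below 0 with both triggers, and TAGLN at 0.41 and 0.03.

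ANKRD1 lay above GFP with both triggers. In FPKM CCN1 and AMOTL2 lay below GFP with both, and CCN2 did so with TRIM9 and overlapped GFP with BCL2L11. A ratio of genes within 1 library needs no scaling between libraries. Ratios over ANKRD1 reuse the values for which it was chosen, so how they lie to GFP is a description that supports nothing further. The ratio of ANKRD1 to CCN1 was 1.57 and 1.45 in GFP cells, 4.78 and 4.12 in BCL2L11 cells and 5.89 and 6.67 in TRIM9 cells. Both trigger groups lay above GFP. The ratio of ANKRD1 to AMOTL2 was 3.03 and 2.93 in GFP cells, 15.2 and 7.54 in BCL2L11 cells and 14.6 and 12.4 in TRIM9 cells, again with GFP apart and the triggers overlapping. The same held for ANKRD1 to CCN2, at 13.6 and 10.1, 38.5 and 27.7, and 49.0 and 36.2 in GFP, BCL2L11 and TRIM9 cells. The ratio of CCN1 to CCN2, in contrast, was 8.62 and 6.94, 8.06 and 6.73, and 8.32 and 5.43 in the same order, so that the matrix protein genes kept overlapping ratios in the 3 groups. The ratio of ACTA2 to CCN1 was 1.13 and 0.865 in GFP cells, 1.18 and 0.587 in BCL2L11 cells and 0.923 and 0.241 in TRIM9 cells, with replicate 2 the lower in each group.

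**Figure D3:**
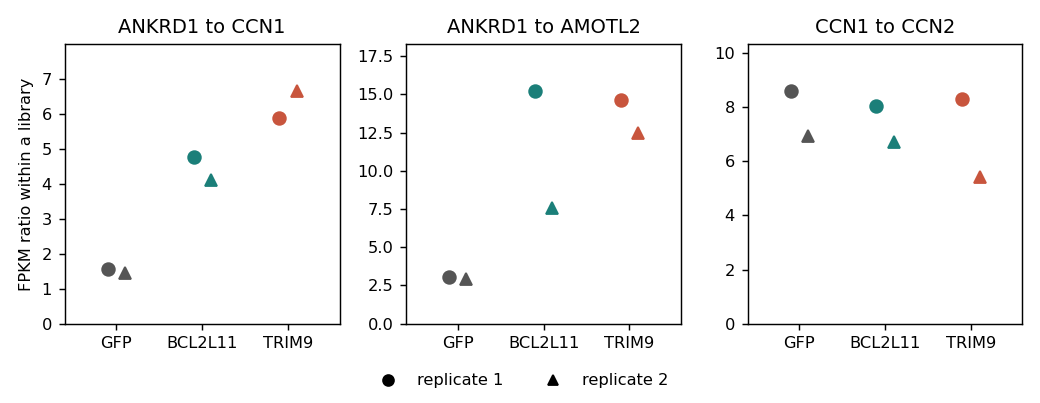
Ratios of FPKM between genes of the same library (vertical axes from 0) by group, with circles for replicate 1 and triangles for replicate 2. ANKRD1 to CCN1 lies at 1.45 to 1.57 in GFP cells and 4.12 to 6.67 with a trigger, while CCN1 to CCN2 overlaps between the groups.

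The triggers were also set against each other, with no GFP library in the contrast. ACTA2 and ANKRD1 are given as values only, since their choice used the same trigger libraries: TRIM9 minus BCL2L11 was -1.06 (SE 0.52) and 0.02 (SE 0.29) in log2(FPKM + 1). Of CCN1, CCN2, AMOTL2 and TAGLN 0 passed in limma, against 0.0132% of all tested genes (0.0198% with a term for the sets, again with 0 of the 4), and 0 had an unadjusted p under 0.05 (0.645% of all). CCN1 was lower in both TRIM9 libraries than in both BCL2L11 libraries, as were 5.72% of all tested genes, while 8.44% and none of the 4 were higher. It had a log2 difference of -0.43 (95% interval -1.12 to 0.26, limma adjusted p = 1.0). The differences of TAGLN (-0.37, interval -1.18 to 0.43), AMOTL2 (-0.26, interval -1.13 to 0.61) and CCN2 (-0.19, interval -0.93 to 0.55) each had overlapping groups and an adjusted p of 1.0 in limma. The intervals do not show that the triggers act alike on these genes. The sign of AMOTL2 turned without BCL2L11 replicate 2 (0.12).

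Transcript models added detail on which RNA carried each gene's signal. ACTA2 was carried mainly by the 9-exon transcript ENST00000224784, which starts at the window with the TEAD letters and the near-CArG boxes shown above. This transcript stood at 13.0 and 10.4 FPKM in GFP cells, 9.78 and 4.89 in BCL2L11 cells and 4.39 and 1.21 in TRIM9 cells, so it lay below GFP with both triggers, as the gene did. The transcript ENST00000415557, which starts far upstream at the other window, held 6.24% to 30.6% of the gene's FPKM, with 0.920 and 2.97 in GFP cells, 2.09 and 1.2 in BCL2L11 cells and 2.09 and 0.563 in TRIM9 cells. For this upstream transcript the groups overlapped.

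The CCN1 signal lay mostly in the 5-exon transcript ENST00000451137, with 57.8% to 92.4% of the gene's FPKM. The longer ENST00000674818 held 37.5% in GFP replicate 1 and at most 6.96% in the other libraries. The AMOTL2 signal lay mainly in 3 of 13 models, and ENST00000506326, a shorter form, held 55.7% in GFP replicate 1 and at most 12.5% elsewhere. The 10-exon models ENST00000249883 and ENST00000422605 stood at 0.926 and 0 FPKM in GFP replicate 1, below the 2.01 and 3.68 of BCL2L11 replicate 2. What this split does to the FPKM of AMOTL2 was not tested. For TAGLN no model held more than 26.9% of the FPKM summed over the libraries, and its 5 main models were reordered from library to library. ANKRD1 and CCN2 have 1 annotated model each, so no such split could touch their values.

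**Figure D4:**
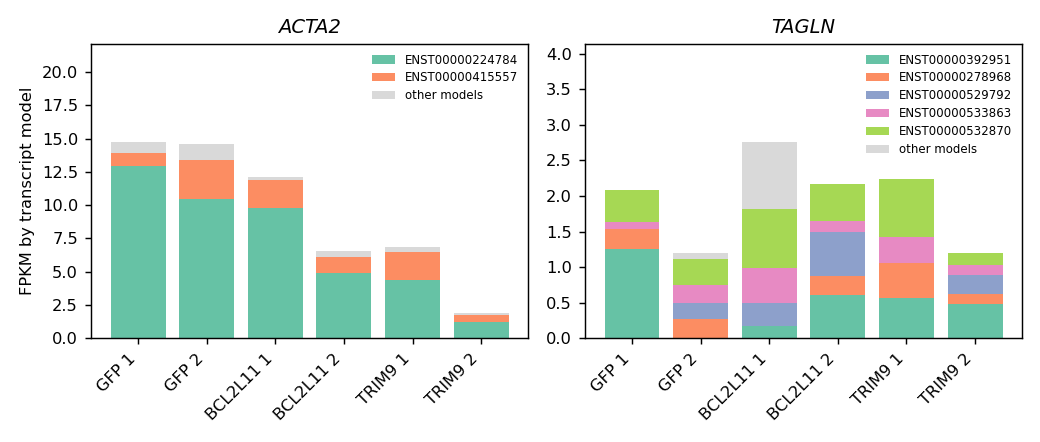
FPKM of ACTA2 and TAGLN by transcript model in the 6 libraries, stacked to the gene total, with models under 10% of the gene shown in grey. The ACTA2 transcript ENST00000224784 goes from 13.0 and 10.4 in GFP cells to 4.39 and 1.21 with TRIM9, and no single model leads TAGLN throughout.

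Annotated neighbours overlap some of the genes, and the sources used here do not say whether reads were counted by strand, so reads of a gene and its antisense partner cannot be told apart. The ACTA2 span overlaps on the opposite strand FAS, the death receptor gene, with 3.26 and 5.91 FPKM in GFP cells, 2.53 and 6.47 in BCL2L11 cells and 1.54 and 3.04 in TRIM9 cells, and STAMBPL1 with 2.12 to 3.66. ACTA2-AS1 stood at 0.0269 to 0.310. TAGLN overlaps PCSK7 (4.48 to 6.43 FPKM) on the opposite strand, at levels above its own. The part of these neighbours in the values was not tested.

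Close relatives of the genes matter because reads can be shared between near-identical coding sequences. The cytoplasmic actin genes ACTB (539 to 944 FPKM) and ACTG1 (802 to 1366) stood far above ACTA2, and ACTC1 and ACTG2 stayed under 1 FPKM. ACTA1, skeletal muscle actin, stood at 4.67 and 5.12 FPKM in GFP cells, 5.75 and 4.25 in BCL2L11 cells and 2.94 and 2.05 in TRIM9 cells. Both TRIM9 libraries of ACTA1 lay below the other 4 (log2 difference from GFP -0.76, SE 0.32, adjusted p = 0.9999 in limma). Of all tested genes 11.2% lay with TRIM9 below GFP without overlap, and 5.72% below BCL2L11. Since the division of reads between ACTA1 and ACTA2 is unknown here, both are uncertain. TAGLN2 stood at 239 to 423 FPKM and TAGLN3 at 0.177 at most. The non-muscle relatives of MYL9, MYL12A and MYL12B, stood at 40.3 to 57.7 and 56.0 to 82.5 FPKM, so HEK293T cells held these light chains with MYL9 at or near 0. Of the other CCN genes, CCN3 to CCN6, none reached 1 FPKM, nor did ANKRD2 or ANKRD23. The other angiomotin genes AMOT (26.3 to 64.5) and AMOTL1 (3.01 to 6.94) were expressed.

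ACTA2 and TAGLN are also markers of smooth muscle and of activated fibroblasts, and in bulk RNA fewer cells of a type and less RNA per cell cannot be told apart. Of 6 other smooth muscle markers 1, LMOD1, reached 1 FPKM, and MYH11, DES, MYOCD and SYNPO2 stayed at 0.153 or less. CNN1 stood at 0.0961 and 0.307 FPKM in GFP cells, 0.824 and 0.413 in BCL2L11 cells and 0.112 and 0.0953 in TRIM9 cells. The summed FPKM of the 6 was 1.82 and 1.72 in GFP cells, 2.03 and 1.5 in BCL2L11 cells and 1.78 and 1.36 in TRIM9 cells. Of 8 fibroblast markers 3, the collagen genes COL1A1, COL1A2 and COL3A1, reached 1 FPKM, with DCN at 0.0348 at most. COL1A2 (1.56) and COL3A1 (1.69) did so in BCL2L11 replicate 1 alone, with 0 and at most 0.288 elsewhere. The sum of the 8 was 1.72 and 2.30 in GFP cells, 7.82 and 2.44 in BCL2L11 cells and 3.4 and 2.70 in TRIM9 cells. It was highest in BCL2L11 replicate 1, the library in which the FPKM of TAGLN was also highest. None of 5 endothelial markers reached 1 FPKM, with sums of 0.139 to 0.544. Of 6 blood markers HBA1 and HBA2 did, and the sum was 10.1 to 13.5 in set 1 and 4.82 to 7.02 in set 2, while PTPRC and HBB were listed at 0 throughout. The part of other cells in the values was not tested.

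The replicates offered a contrast that the choice of the genes did not use, set 2 against set 1, fitted in limma with group and set together. Of all tested genes 32.9% passed, 22.5% as higher in set 2 and 10.3% as lower, and of the 6 target genes 0 passed, with 3 at an unadjusted p under 0.05 (46.7% of all). ACTA2 was lower in set 2 in all 3 groups (log2 difference -0.74, SE 0.27, limma adjusted p = 0.0862), as was TAGLN (-0.43, SE 0.15, adjusted p = 0.071). AMOTL2 (0.48, SE 0.16, adjusted p = 0.0637), CCN2 (0.35, SE 0.14, adjusted p = 0.108) and CCN1 (0.19, SE 0.14, adjusted p = 0.329) were higher in set 2 in all 3 groups in the limma fit. Of all tested genes 38.1% were higher and 23.9% lower in all 3. ANKRD1 went both ways (0.15, SE 0.14, limma adjusted p = 0.466). Rescaling by TMM, a trimmed mean of log ratios, moved the median of all genes from 0.06 to -0.08 and the share of higher among the called genes from 68.5% (3421 higher, 1570 lower) to 46.9% (2466 higher, 2788 lower). ACTA2 (-0.90, adjusted p = 0.0333) and TAGLN (-0.54, adjusted p = 0.0383) then passed in limma, and ANKRD1 changed sign (-0.026). ACTA2 also passed without either GFP library (-1.11, limma adjusted p = 0.0075 for each), and AMOTL2 passed without GFP replicate 1 (0.58, adjusted p = 0.0253) or GFP replicate 2 (adjusted p = 0.0254).

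Among the factors that act on these genes, YAP1 and TEAD1 differed more in size between the sets than any tested target gene, with and without TMM rescaling. After that rescaling ACTA2 (-0.901) differed more in size than WWTR1 (0.654), MRTFB (0.722) and LATS2 (0.797). Whether the set difference of a factor exceeds that of a target gene was not tested. The values that follow are without TMM rescaling. YAP1 stood at 3.64 to 4.35 FPKM in set 1 and 10.9 to 12.1 in set 2 (log2 difference 1.35, SE 0.13, limma adjusted p = 0.0111), and TEAD1 at 2.17 to 3.0 and 6.81 to 7.06 (1.13, SE 0.15, adjusted p = 0.0111). The genes of TAZ, WWTR1 (0.79, SE 0.15, adjusted p = 0.0154), of the coactivator MRTFB (0.86, SE 0.14, adjusted p = 0.013) and of the kinase LATS2 (0.91, SE 0.15, adjusted p = 0.0135) rose as well in set 2 in limma. TEAD4, the most abundant TEAD gene, fell by 0.53 (SE 0.16, adjusted p = 0.0493 in limma), from 20.9 to 25.9 FPKM in set 1 to 14.5 to 17.9 in set 2. TEAD2 (4.31 to 7.93 FPKM), TEAD3 (0.969 to 2.03), SRF (10.1 to 14.7) and MRTFA (6.40 to 11.8) overlapped between the sets. Leaving out 1 library ended some of these calls. Without BCL2L11 replicate 1 the limma adjusted p was 0.124 for WWTR1, 0.0726 for MRTFB, 0.317 for TEAD4 and 0.0619 for LATS2, and with the second BCL2L11 library left out instead it was 0.12, 0.0662, 0.327 and 0.0558. Leaving out TRIM9 replicate 1 gave 0.0562, 0.0541 and 0.237 for the first 3 of these genes, and leaving out TRIM9 replicate 2 gave 0.0589, 0.0564, 0.249 and, for LATS2, 0.0521. The calls of YAP1 and TEAD1 were kept in all 6 such fits. Without a filter on low levels 0 genes passed in limma.

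**Figure D5:**
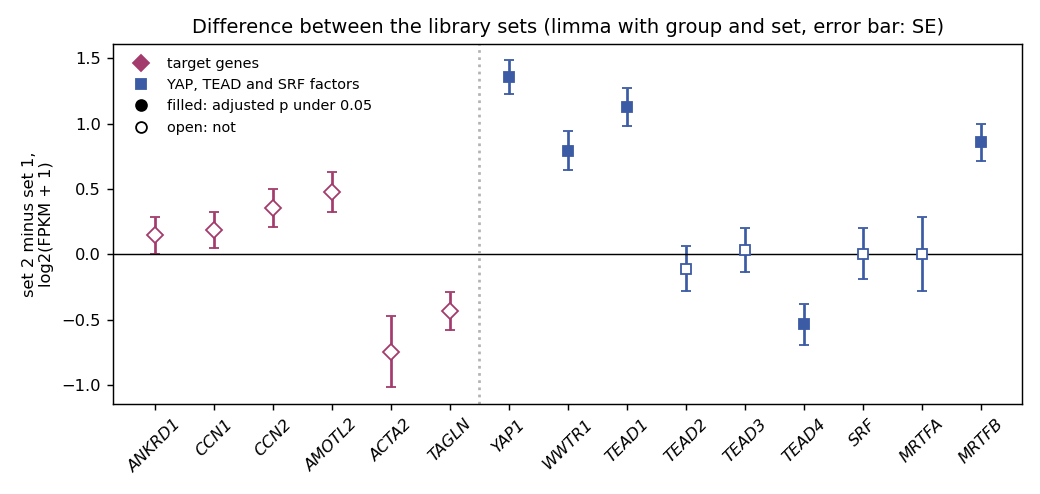
Difference of set 2 from set 1 in log2(FPKM + 1) with SE, for 6 target genes (diamonds) and 9 YAP, TEAD and SRF factors (squares), filled where the limma adjusted p was under 0.05. YAP1 at 1.35 and TEAD1 at 1.13 lie highest, ACTA2 at -0.74 lies lowest, and no target gene is filled.

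Against GFP no factor passed with either trigger. Of 24 tested genes of the Hippo pathway 0 passed in limma with BCL2L11 or TRIM9, and 0 and 0 had an unadjusted p under 0.05. Such counts, here and below, are from the fit by group alone and depend on it. With a term for the sets 0 passed as well, but LATS2 had an unadjusted limma p of 0.0232 with BCL2L11 and 0.0199 with TRIM9. The share of all tested genes under 0.05 in that fit was not counted. The median log2 difference of the 24 was -0.11 and -0.13, beside -0.08 and -0.04 for all tested genes. YAP1 stood at 3.78 and 11.7 FPKM in GFP cells, 3.64 and 10.9 in BCL2L11 cells and 4.35 and 12.1 in TRIM9 cells, and WWTR1 at 3.12 and 5.43, 2.13 and 5.36, and 2.74 and 5.11. The Hippo genes of lowest p were LATS2 (-0.58, SE 0.51 with BCL2L11 and -0.61, SE 0.51 with TRIM9) and TEAD2 (0.33 and 0.45, SE 0.31 each). LATS2, itself a YAP target, stood at 2.05 and 3.91 FPKM in GFP cells, 0.751 and 2.81 in BCL2L11 cells and 0.85 and 2.49 in TRIM9 cells, so in each set it was lower with a trigger, while the groups overlapped. TEAD2 lay above GFP with both triggers without overlap. With BCL2L11 1 of the 24 lay above GFP without overlap and 1, NF2, below, against 4.44% and 12.3% of all tested genes. With TRIM9 it was 2 above, TEAD2 and TEAD3, and 2 below, NF2 and FAT1, against 6.66% and 11.2%. These counts are near the shares of all genes.

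Of 18 other published YAP targets 10 were tested, and with either trigger 0 passed in limma and 0 had an unadjusted p under 0.05. With a term for the sets 0 passed as well. In that limma fit the unadjusted p was 0.0232 for LATS2 with BCL2L11. With TRIM9 it was 0.0199 for LATS2, 0.032 for GADD45A and 0.041 for ASAP1. The median of the 10 was -0.12 with BCL2L11 and -0.14 with TRIM9. With BCL2L11 0 of the 10 lay above GFP without overlap and 0 below, against 4.44% and 12.3% of all tested genes. With TRIM9 it was 0 above and 1 below, against 6.66% and 11.2%, so 1 of 10 is close to the share of all genes. That gene was GADD45A, which acts in growth arrest after DNA damage, at 49.0 and 39.0 FPKM against 61.4 and 72.3 (log2 difference -0.60, SE 0.31, adjusted p = 0.9999 in limma). ASAP1, which encodes a regulator of focal adhesions, followed LATS2 with BCL2L11 at -0.45 (SE 0.50), with 3.73 and 8.53 FPKM against 6.59 and 10.1. AXL, NT5E, IGFBP3 and MYOF stayed under 0.5 FPKM, while the 10 tested genes of this list reached 1 FPKM in at least 2 libraries.

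Of 9 tested regulators of SRF 0 passed in limma with either trigger (0 and 0 at an unadjusted p under 0.05), with medians of -0.30 with BCL2L11 and -0.01 with TRIM9, the latter 0.06 after TMM rescaling. With a term for the sets 0 passed as well, and MRTFB had an unadjusted limma p of 0.0491 with BCL2L11. SRF stood at 10.1 and 14.6 FPKM in GFP cells, 14.7 and 12.7 in BCL2L11 cells and 13.9 and 11.2 in TRIM9 cells. MRTFA stood at 6.40 and 11.3, 8.27 and 8.29, and 11.8 and 6.73, and MYOCD, the muscle coactivator, at 0.0162 at most. With BCL2L11 0 of the 9 lay above GFP without overlap and 2, RHOA and ELK4, below, against 4.44% and 12.3% of all tested genes. With TRIM9 it was 0 and 0, against 6.66% and 11.2%. RHOA, the GTPase that signals to actin, stood at 197 and 219 FPKM in BCL2L11 cells and 302 and 227 in GFP cells, with a log2 difference of -0.33 (SE 0.33). ELK4 followed at -0.47 (SE 0.43) with BCL2L11 and -0.39 (SE 0.43) with TRIM9, and ELK1 at 0.36 (SE 0.40) with TRIM9.

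Of 17 other tested SRF targets of the actin cytoskeleton 0 passed in limma with BCL2L11 (0 at an unadjusted p under 0.05). With TRIM9 0 passed and 1, ACTA1, had an unadjusted p under 0.05, beside 1.15% of all tested genes. With a term for the sets 0 passed as well, and with TRIM9 the unadjusted limma p was 0.009 for ACTA1 and 0.0363 for TPM2. With BCL2L11 1 of the 17 lay above GFP without overlap and 4 below, as ACTA2 did (4.44% and 12.3% of all). With TRIM9 it was 2 above and 1 below, against 6.66% and 11.2%. The medians of the 17 were -0.15 and -0.02, or -0.05 and 0.05 after TMM rescaling. TPM2, a tropomyosin gene, lay on the side opposite to ACTA2, with 4.65 and 4.68 FPKM in GFP cells, 11.3 and 5.52 in BCL2L11 cells and 15.4 and 5.63 in TRIM9 cells (log2 difference 0.66 and 0.88, SE 0.51 each). The excess of TPM2 lay almost wholly in replicates 1. FHL2 stood at -0.40 (SE 0.36) with BCL2L11. The immediate early genes that answer to SRF through ELK factors gave 0 of 6 with either trigger in limma (0 and 0 at an unadjusted p under 0.05, medians -0.17 and 0.05). With a term for the sets 0 of these passed as well, and EGR1 had an unadjusted limma p of 0.0384 with BCL2L11. EGR1 stood at -0.69 (SE 0.45) and FOSB at -0.34 (SE 0.29) with BCL2L11, and JUNB at 0.80 (SE 0.40) and IER2 at 0.39 (SE 0.36) with TRIM9.

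Between the sets these lists differed in how many genes passed. In limma 14 of the 24 Hippo genes rose and 1 fell in set 2, 5 of 9 SRF regulators, 4 of 10 other YAP targets, 2 of 17 cytoskeletal SRF targets and 1 of 6 immediate early genes rose, and none of these last 4 lists had a gene that fell, beside the 22.5% and 10.3% of all tested genes. The median differences were 0.64, 0.62, 0.40, -0.16 and 0.30 in that order, beside 0.06 for all tested genes, and after TMM rescaling 0.49, 0.49, 0.28, -0.32 and 0.18, beside -0.08.

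The authors' deposited gene tables listed 3 of the 7 genes, and their folds are given as the authors' values. In the authors' deposited table for BCL2L11 the fold was 2.23 for ANKRD1, 0.536 for ACTA2 and 1.10 for CCN1. In the authors' deposited table for TRIM9 it was 2.19 for ANKRD1, 0.255 for ACTA2 and 0.509 for CCN1. The q-values of all 3 genes stood at 0.9999 or 1.0 in both deposited tables of the authors. For CCN1 with BCL2L11 that table lies above 1, while the ratio of mean FPKM computed here was 0.717, with 0.788 within set 1 and 0.663 within set 2. CCN2, AMOTL2, TAGLN and MYL9 had no row in the tables used here.

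The genes most like ANKRD1 and ACTA2 across the 6 libraries were ranked by Pearson's r of log2(FPKM + 1) among 8109 genes with a mean FPKM of at least 5, as a description over libraries that share groups and sets. For ANKRD1 they were PUS3 (r = 0.913), a pseudouridine synthase gene, C2orf76 (r = 0.908) and AC025165.3 (r = 0.891), and 2 genes exceeded 0.9. PUS3 varied over a narrow range, from 7.97 to 8.89 FPKM, while C2orf76 went from 4.52 and 4.04 in GFP cells to 6.77 to 8.36 with a trigger. AC025165.3 was listed at 0 and 0.409 FPKM in GFP cells, 2.79 and 5.42 in BCL2L11 cells and 11.9 and 10.4 in TRIM9 cells, so that, other than for ANKRD1, the trigger groups did not overlap. For ACTA2 they were POMZP3 (r = 0.985), DDB2 (r = 0.979), which encodes a subunit of the complex that recognises ultraviolet damage in DNA, and MOK (r = 0.977), a kinase gene, and 54 genes exceeded 0.9. DDB2 stood at 30.9 and 24.4 FPKM in GFP cells, 26.8 and 17.8 in BCL2L11 cells and 17.8 and 9.92 in TRIM9 cells, so that it shared with ACTA2 the lowest value in TRIM9 replicate 2.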

How the data were processed

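Poly-A RNA of 6 libraries was analysed, and the small RNA files were not used here. The submitters' processing notes name cutadapt 3.4 for trimming adapters, STAR, the assembler StringTie 2.1.3, the test DESeq2 1.20.0 and the build hg38. Per the file headers each deposited StringTie table lists 250719 transcripts, with an FPKM for each and a coverage signal, the average depth over its bases. The authors' deposited gene tables give a ratio (fold) and the same as log2, with p-value and q-value columns, and no header names their tool.

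Gene FPKM was summed over the transcripts of a gene, and covered bases were coverage times transcript length. No read counts were used, so counting error is unknown beyond these bases. log2(FPKM + 1) was fitted in limma 3.58.1 (R 4.3.3, with trend, by group, all 6 libraries), keeping genes that reached an FPKM of 1 in 2 or more libraries, two-sided, with Benjamini-Hochberg adjustment over 15183 genes. Among them 994 lie on scaffolds, and listed symbols were read from the assembled chromosomes. The set comparison added a term for the sets. Fold changes on this scale understate those of low genes. The fit of TRIM9 against GFP was tested on simulated data, and the other comparisons were not. The 7 genes and the lists were chosen with earlier results of these data known. The lists were other YAP targets, Hippo pathway, SRF regulators, other cytoskeletal and immediate early SRF targets, relatives of the 7 genes, and smooth muscle, fibroblast, endothelial, blood and HEK293 markers. Named were the 7 genes, the YAP, TEAD and SRF factors, up to 4 genes of lowest p per list and trigger, the relatives, and the 3 genes most like ANKRD1 or ACTA2. AXL, NT5E, IGFBP3 and MYOF, LATS2 between the sets, and single markers and overlapping genes were named after their values were seen. p-values measure only the spread between these libraries.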

Additional observations from a re-analysis of the deposited data

How the results depend on the processing

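Values were recomputed after TMM rescaling, with 0.1 in place of 1 as pseudocount, with a filter at 5 FPKM or none, without the trend, with the set term, in the compared groups alone, and without each library in turn. The filter at 5 gave no value for CCN2, TAGLN, LATS2, ELK4 and FOSB, and the compared groups alone gave none for FOSB. Without a filter limma called 15 genes for BCL2L11, 18 for TRIM9, 29 for TRIM9 against BCL2L11 and 0 for the sets, in place of 1, 1, 2 and 4991. For TRIM9 the compared groups alone gave 4, and the fits without 1 library gave 1 to 5, with 5 without either BCL2L11 library. For the sets these fits gave 1265 to 8178 (fewer without a BCL2L11 or TRIM9 library, more without a GFP library), so that count rests on which libraries are present.

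The replicate block, a term for the sets, gave 6 calls for TRIM9 in place of 1, none of them a target gene, and changed no call of these genes against GFP. Deviations from the group means correlated between groups at 0.583, 0.493 and 0.830 over genes, a hint from the data and not from the design.

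Among the tested target genes, differences from GFP kept their sign in all alternatives except TAGLN with TRIM9 (-0.25 to 0.31). Where groups do not overlap, leaving out 1 library cannot turn the sign. The set term, the trend and the filter do not change the size of a difference. The kept signs therefore lend the differences no further support. That of ANKRD1 lay between 0.93 and 1.18 with BCL2L11 and between 0.93 and 1.21 with TRIM9. Signs turned in some fits without 1 library, given here as the range over these fits: CCN2 (-0.38 to 0.0022) and AMOTL2 (-0.64 to 0.12) for TRIM9 against BCL2L11, positive without TRIM9 replicate 1 and BCL2L11 replicate 2, ASAP1 with BCL2L11 (-0.96 to 0.05, positive without BCL2L11 replicate 1), and with TRIM9 ELK4 (-0.91 to 0.13, positive without TRIM9 replicate 1) and ELK1 (-0.18 to 0.90, negative without GFP replicate 1). With TMM ANKRD1 between the sets turned to -0.026. The cause was not tested. TEAD4 also lost its set call with a pseudocount of 0.1 (0.0508) and without the trend (0.0528).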
